A study of Mus musculus with 15 samples.

Results

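The genes described here encode the mitochondrial route of fatty acid oxidation. They were taken as a list of 39 symbols: the acyl-CoA synthetases that activate fatty acids, the carnitine shuttle, the enzymes of the beta-oxidation spiral, the electron transfer proteins that take up its electrons, and acyl-CoA thioesterases. Of these symbols, 37 are in the deposited table of 37991 genes. The other two, Dci and Peci, are older symbols of Eci1 and Eci2, which the list holds as well. RNA was sequenced from the inguinal fat pad, a white depot under the skin, of C57BL/6 mice aged 8 weeks, 5 in each of 3 groups.

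WT mice carried floxed alleles of LKB1 (LKB1 F/F) and, by their label, no Cre. KO mice carried AdipoqCre with LKB1 F/F, and dKO mice carried AdipoqCre with both LKB1 F/F and HDAC4 F/F. AdipoqCre places Cre recombinase under the promoter of the adiponectin gene, so the alleles are removed in adipocytes and remain in the other cells of the depot. LKB1, encoded by Stk11, is the kinase that activates AMPK and related kinases, and HDAC4 is a class IIa histone deacetylase. The genotypes include no loss of HDAC4 alone, so KO and dKO mice both lack LKB1 in adipocytes. The study's title concerns the return of beige adipocytes, heat-producing cells that arise in such depots.

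Long-chain fatty acids are first joined to coenzyme A and then carried into mitochondria as carnitine esters by carnitine palmitoyltransferases. Inside, each round of the spiral removes a 2-carbon unit as acetyl-CoA through dehydrogenation, hydration, a second oxidation and thiolysis. The electrons of the first step pass through the electron transfer flavoprotein, made of Etfa and Etfb, to the ubiquinone reductase encoded by Etfdh. White adipocytes mainly store triglyceride, while brown and beige adipocytes burn fatty acids for heat. Genes of the spiral are known targets of the nuclear receptors PPAR alpha and the estrogen-related receptors with their coactivator PGC-1 alpha.

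Total counts ran from 1564004 to 21570688 per library, and the listed genes together received 5037 to 93289 counts per library. Levels are CPM, a gene's counts per 1000000 counts of the genes tested, with TMM scaling. Of the 37 genes, 34 had enough counts to be tested; Cpt1b, Acsl6 and Acot1 did not. Stk11 lay between 22.2 and 37.8 CPM in WT, between 11.6 and 22.5 CPM in KO and between 16.6 and 22.7 CPM in dKO; in KO against WT it had a log2 fold change of -0.69 (SE 0.18, adjusted p = 0.115) and was not called. The symbol Hdac4 belongs to 2 gene identifiers, at 4.52 to 7.14 and 9.41 to 11.2 CPM in dKO against 4.36 to 7.11 and 8.17 to 13.4 CPM in KO, and neither was called. The exons removed are not stated in the labels, and other cells of the depot keep them, so whole-gene counts check the genotypes only in part. The tissue label was checked against 13 adipocyte markers, all of them detected in each group, whose summed level ranged from 5441 to 8302 CPM in WT, from 5908 to 7402 CPM in KO and from 5597 to 9646 CPM in dKO.

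Libraries that stand apart bear on every result below. dKO replicates 4 and 5, titled 1753 and 1753-2, carried the highest adipocyte sums of the group, 9646 and 9477 CPM, and the lowest lymphocyte sums, 357 and 355 CPM over 11 markers against 627 to 1025 CPM in the other 3 dKO libraries. Fasn, the fatty acid synthase gene, reached 6210 and 6187 CPM there, against 465 to 1079 CPM in the other 3. Their counts differed by 4.6 times the sampling noise (chi-square per degree of freedom), the lowest value among the dKO pairs although these are the deepest dKO libraries, and pairs of one group ranged from 4.48 to 43.2. Libraries of a single mouse can differ by more than sampling noise, so this does not show that they are 2 mice. They were counted as 2 because the labels list them as separate samples; if they are a single mouse, n in dKO is 4 and p-values of comparisons with dKO are too small. Calls and fold changes that rest on them are given with and without them. Skeletal muscle, itself rich in these enzymes, also varied: the sum of 17 muscle markers was 35.3 to 1406 CPM in WT, with the highest value in replicate 1, 103 to 3830 CPM in KO, with the highest value in replicate 3, and 52.2 to 546 CPM in dKO. Tnnc2 was listed at 0 in every library. The labels give no batch, but index barcodes 12 to 16 were used only in dKO.

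Per kilobase of exon, Acsl1 and Etfa were the most abundant of the 37 genes. In WT, Acsl1 stood at 119 ± 19 CPM per kb (SD, n = 5) and Etfa at 112 ± 18.6, levels that did not differ beyond their spread. Etfb followed at 71.6 ± 15.6 CPM per kb. Acadl, Acadm and Acaa2 came next at 45.7 ± 3.29, 43.9 ± 6.65 and 40.0 ± 4.02 CPM per kb, again within each other's spread. In KO, Etfa ranked first at 192 ± 27.4 CPM per kb and Acsl1 came after it at 134 ± 23.6. Acaa2, Acadl and Acadm reached 94.9 ± 23.6, 93.5 ± 27.6 and 85.8 ± 12.1 CPM per kb in KO. In dKO, Etfa was at 181 ± 48.7 and Acsl1 at 158 ± 65.7 CPM per kb. Acot1, Cpt1b and Acsl6 were the lowest in each group, at no more than 0.691 CPM per kb.

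**Figure D1:**
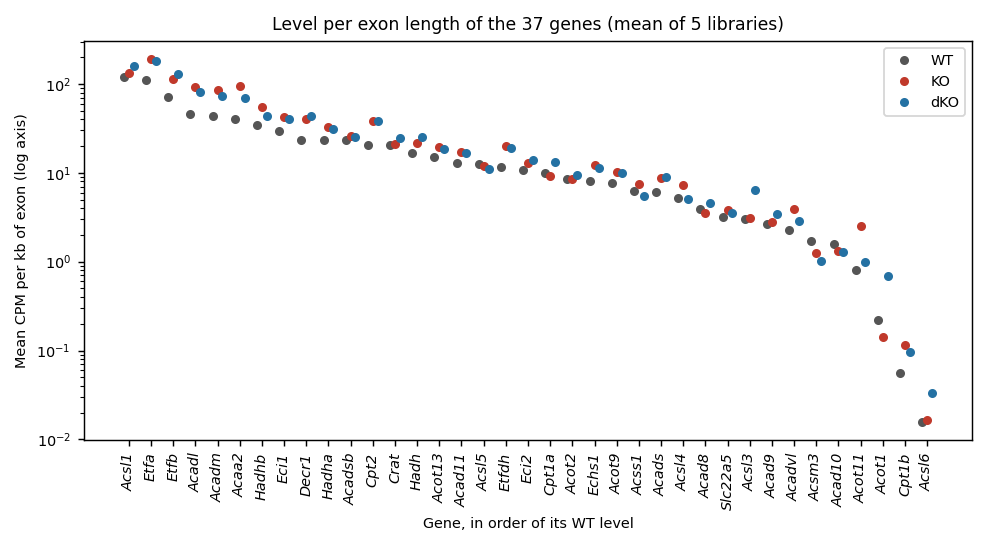
Mean level of the 37 genes in CPM per kilobase of exon on a log axis (points: mean of 5 libraries; grey WT, red KO, blue dKO), in the order of their WT level. Acsl1 and Etfa lead at 119 and 112 CPM per kb in WT, and Acot1, Cpt1b and Acsl6 trail at 0.222, 0.0565 and 0.0158.

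Loss of LKB1 in adipocytes was compared with WT first. Acadm, Acadl, Acaa2 and Etfa rose in KO, by 1.95, 2.04, 2.37 and 1.71 fold, and no listed gene fell. The first 3 encode enzymes of the spiral that act on medium and long acyl chains, and Etfa the alpha subunit of the flavoprotein that takes their electrons. Thus 4 of 34 tested genes rose at an adjusted p under 0.05 (edgeR's quasi-likelihood test, Benjamini-Hochberg over 12188 genes), or 11.8%, beside 0.435% of all genes tested. The median log2 fold change of the 34 genes was 0.41 and that of all genes 0.01; 28 of 34 lay above 0. In 9 of 34 genes (Acadl, Acadm, Acaa2, Etfa, Etfdh, Cpt2, Decr1, Echs1 and Acot9) every KO library was above every WT library, beside 2.11% of all genes. Summed over the 37 genes, the level was 2608 to 3257 CPM in WT and 3427 to 4901 CPM in KO, so the groups did not overlap. Acsl1 alone made up 27.2 to 42.6% of this sum in the 15 libraries. Since whole tissue was sequenced, more cells of a type and more RNA per cell cannot be told apart.

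The number of calls depended on the fit. Without both 1753 libraries, 8 of 34 genes rose in KO, beside 1.55% of all genes: Cpt2, Etfdh, Decr1 and Hadhb joined, with a median of 0.39. With DESeq2 the count was 7 and with a muscle covariate 2. Acadm and Acadl were called in all 15 fits that left out 1 library, with a highest adjusted p of 0.0202 and 0.0270. The call of Acaa2 was lost without any WT library or without KO replicate 1, 2, 3 or 4, at log2 fold changes of 1.14 or more and adjusted p of 0.0521 to 0.11. That of Etfa was lost without WT replicate 1, 2, 4 or 5, any KO library or dKO replicate 2, at log2 fold changes of 0.69 or more and adjusted p of 0.0521 to 0.179. With no filter on low counts, 3 genes were called and Acaa2 was not (1.25, adjusted p = 0.144); with median-of-ratios scaling 3 were called and Etfa was not (0.75, adjusted p = 0.0569).

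**Figure D2:**
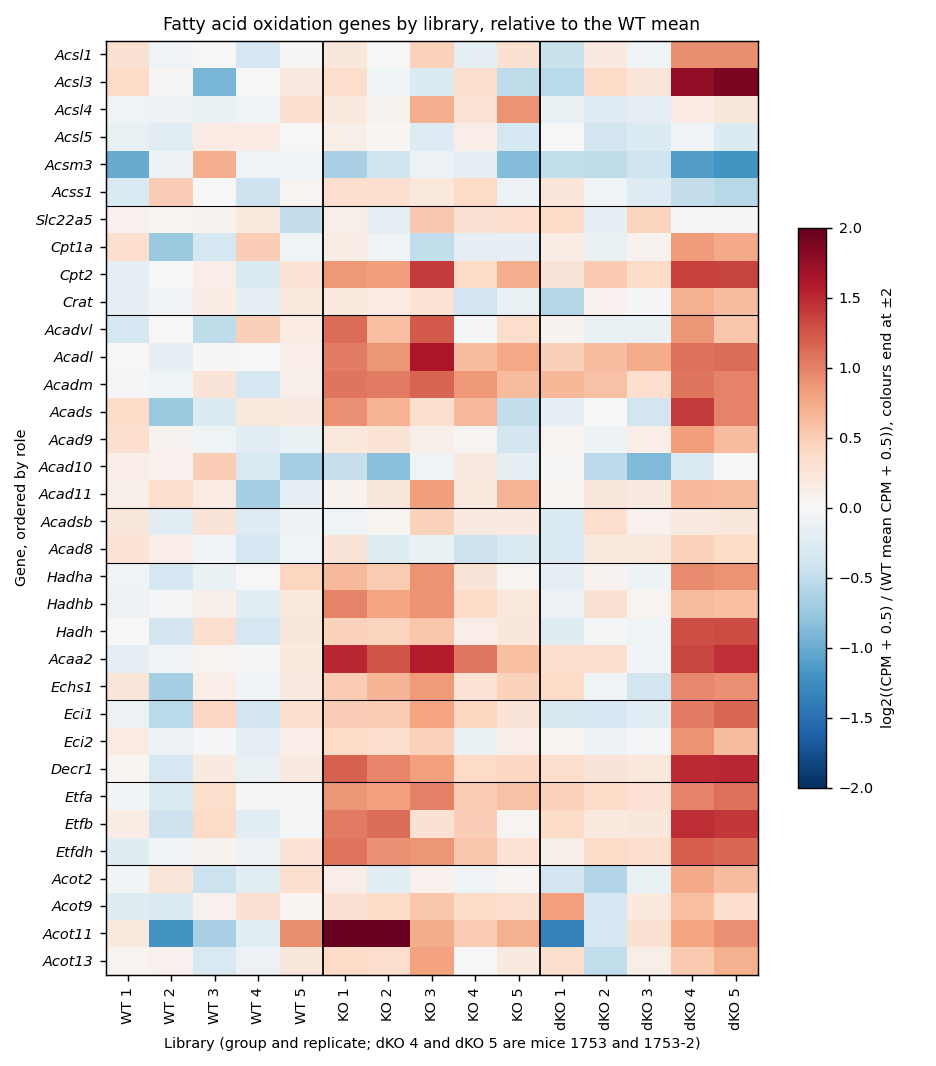
Level of the 34 tested genes (rows, by role) in each of the 15 libraries (columns), as the log2 ratio of CPM + 0.5 to the WT mean + 0.5, red above and blue below the WT mean. Most rows of the spiral and the electron transfer proteins are red in KO and in dKO replicates 4 and 5, and paler in dKO replicates 1 to 3; 2 Acot11 values in KO lie past the colour scale.

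Among the acyl-CoA dehydrogenases, which take the first oxidation step, Acadm and Acadl stood out. Acadm encodes the medium-chain enzyme (chr3:153585321-153607596 on mm9, minus strand). Acadm was at 126, 121, 154, 102 and 140 CPM in the 5 WT libraries, at 272, 264, 288, 234 and 199 CPM in the 5 KO libraries and at 204, 193, 162, 272 and 256 CPM in the 5 dKO libraries. Every KO library and every dKO library was above every WT library. Its log2 fold change was 0.97 (SE 0.16, adjusted p = 0.00394) in KO and 0.76 (SE 0.16, adjusted p = 0.0297) in dKO against WT.

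Acadl encodes the long-chain enzyme, which in rodents takes a large share of long-chain oxidation (chr1:66877413-66909851 on mm9, minus strand). In the same order, Acadl was at 91, 81.8, 93.5, 91.6 and 100 CPM in WT mice, 187, 170, 282, 141 and 157 CPM in KO mice and 128, 141, 154, 197 and 200 CPM in dKO mice. Again the WT libraries lay below all others, and KO replicate 3, the library with the most muscle RNA, was the highest. The log2 fold change was 1.03 (SE 0.17, adjusted p = 0.00612) in KO and 0.84 (SE 0.17, adjusted p = 0.0297) in dKO against WT. Without KO replicate 3 it was 0.82 in KO against WT (adjusted p = 0.0145), so the call did not rest on that library.

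Acadvl encodes the very-long-chain enzyme of the inner membrane. Acadvl was at 4.71, 6.2, 4.16, 8.77 and 6.95 CPM in the 5 WT libraries, at 14, 9.59, 15, 6.04 and 7.99 CPM in the 5 KO libraries and at 6.49, 5.52, 5.6, 11.8 and 9.32 CPM in the 5 dKO libraries. The groups overlapped, and the log2 fold change in KO against WT was 0.80 (SE 0.29), short of the threshold (adjusted p = 0.332). Its level is uncertain: 42.9% of its exon bases on mm9 overlap exons of Dvl2 on the other strand, and the strand setting of the counting is not given in the sources used here. Acads, the short-chain enzyme, had means of 13.8, 19.7 and 20.4 CPM in WT, KO and dKO. In dKO it was at 12.3, 13.8 and 10.6 CPM in replicates 1 to 3 and at 37.3 and 28.1 CPM in the 1753 pair. Its log2 fold change in dKO against WT was 0.63, and -0.16 without the pair. Acad9, which also helps to assemble complex I, had means of 22.1, 23.2 and 28.4 CPM, and Acad10 and Acad11 had 9.57, 8.05 and 7.71 CPM and 51.4, 69.5 and 66.4 CPM. The pair was also highest in dKO for Acad9, at 39.9 and 34.2 CPM, and for Acad11, at 80.6 and 79.9 CPM. None of these genes passed the test. The branched-chain enzymes Acadsb and Acad8, which serve the breakdown of isoleucine and valine, had log2 fold changes of 0.16 and -0.14 in KO against WT, neither of them called.

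The promoters of Acadm, Acadl and Etfa are shown because these genes rose in KO and have a RefSeq promoter window, 250 bases before to 50 after the annotated start on GRCm38.p6, read 5′ to 3′ on the gene's strand. Capitals mark matches to motifs bound by the receptors named above, on either strand: AGGTCA, the core shared by these receptors; TNAAGGTCA, the extended core of the estrogen-related receptors; and AGGTCANAGGTCA, the repeat known as DR1 to which PPAR binds with RXR, with at most 2 mismatches. AGGTCA is part of the other motifs, so their matches can overlap.
Acadm (chr3:153944594-153944893, minus strand): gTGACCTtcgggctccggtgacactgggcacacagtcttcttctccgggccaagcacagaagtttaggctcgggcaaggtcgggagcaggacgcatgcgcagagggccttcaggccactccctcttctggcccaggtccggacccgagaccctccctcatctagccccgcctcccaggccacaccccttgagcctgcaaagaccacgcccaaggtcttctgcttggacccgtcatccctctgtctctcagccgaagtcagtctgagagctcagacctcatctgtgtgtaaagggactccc
Acadl (chr1:66863260-66863559, minus strand): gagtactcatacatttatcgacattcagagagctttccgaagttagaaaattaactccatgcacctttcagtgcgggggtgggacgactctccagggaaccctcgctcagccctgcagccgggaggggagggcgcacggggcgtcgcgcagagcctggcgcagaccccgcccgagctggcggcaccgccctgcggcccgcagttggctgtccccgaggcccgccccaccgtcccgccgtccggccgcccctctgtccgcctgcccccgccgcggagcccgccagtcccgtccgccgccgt
Etfa (chr9:55512194-55512493, minus strand): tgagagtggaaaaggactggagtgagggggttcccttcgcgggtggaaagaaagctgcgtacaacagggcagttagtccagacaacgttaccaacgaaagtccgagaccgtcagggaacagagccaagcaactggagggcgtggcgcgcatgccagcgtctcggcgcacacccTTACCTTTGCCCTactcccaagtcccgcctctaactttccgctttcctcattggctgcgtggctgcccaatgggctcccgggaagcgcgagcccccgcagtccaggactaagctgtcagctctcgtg
In the Acadm window AGGTCA lies on the other strand at -249 from the start, the Etfa window holds a DR1 match with 2 mismatches on the other strand at -77, and the Acadl window holds no match.

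Over the 35 windows of 31 listed genes, the share with each motif is given beside that of all promoters. AGGTCA was in 14.3% of the members' windows and 16.3% of all 32851 windows, DR1 in 5.71% and 3.86%, and TNAAGGTCA in 2.86% and 1.28%. The single TNAAGGTCA window belongs to Acsl6, and the DR1 windows to Etfa and Echs1. A match is a string of letters and shows no binding. Acaa2, Acad9, Acot13, Cpt1b, Crat and Decr1 were not matched to a window.

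The enzymes of hydration, the second oxidation and thiolysis all had log2 fold changes above 0 in KO, from 0.37 to 1.25 over 5 genes, and Acaa2 passed the test. Acaa2 encodes the mitochondrial thiolase that releases acetyl-CoA. Acaa2 was at 52.8, 57.9, 63.3, 59.9 and 69.2 CPM in the 5 WT libraries, at 173, 146, 181, 127 and 92.6 CPM in the 5 KO libraries and at 76.3, 76.6, 58.4, 153 and 168 CPM in the 5 dKO libraries. All KO libraries exceeded all WT libraries, and dKO split into 58.4 to 76.6 CPM in replicates 1 to 3 and 153 and 168 CPM in the 1753 pair. In KO against WT the log2 fold change was 1.25 (SE 0.26, adjusted p = 0.0337).

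Hadha and Hadhb encode the subunits of the trifunctional protein, which carries out these steps for long chains. They lie head to head with 85 bases between their gene starts (Hadha chr5:30444841-30481702 on the minus strand and Hadhb chr5:30481788-30511133 on the plus strand, mm9). Hadha was at 118, 97.6, 113, 124 and 168 CPM in the 5 WT libraries, at 194, 177, 232, 148 and 129 CPM in the 5 KO libraries and at 109, 130, 116, 240 and 231 CPM in the 5 dKO libraries. In the same order, Hadhb was at 211, 222, 246, 198 and 265 CPM in WT mice, 454, 394, 424, 296 and 264 CPM in KO mice and 210, 282, 236, 353 and 346 CPM in dKO mice. In both genes the KO and WT ranges overlapped, for Hadhb by the lowest KO library alone, at 264 CPM against a highest WT value of 265. The log2 fold changes in KO against WT were 0.50 (SE 0.23, adjusted p = 0.492) for Hadha and 0.68 (SE 0.17, adjusted p = 0.0985) for Hadhb. Without both 1753 libraries, Hadhb rose in KO (0.67, adjusted p = 0.0122). Hadh, the short-chain hydroxyacyl-CoA dehydrogenase, averaged 83.2 ± 18.2 CPM in WT mice, 108 ± 13.2 CPM in KO mice and 128 ± 70.2 CPM in dKO mice (SD, n = 5). Echs1, the short-chain enoyl-CoA hydratase, was at 27.0 to 51.0 CPM in WT and 52.9 to 78.7 CPM in KO, without overlap, yet it did not pass the test (0.57, SE 0.23, adjusted p = 0.398).

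**Figure D3:**
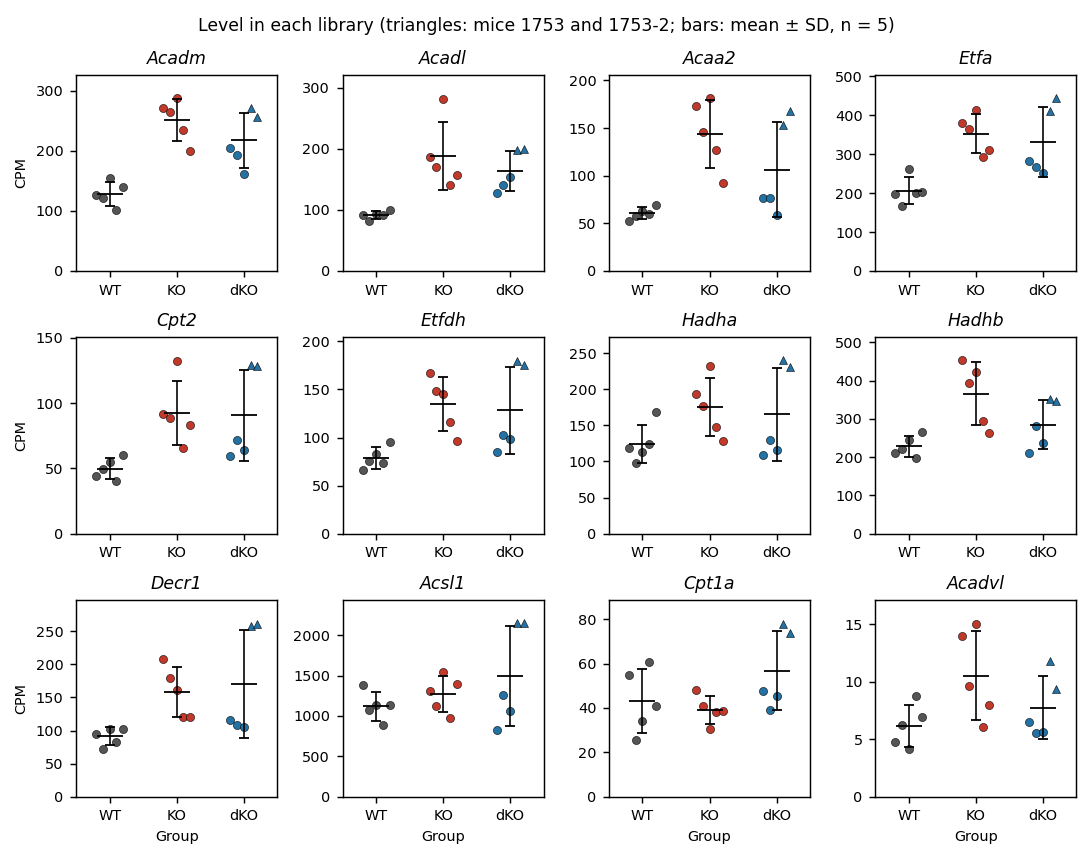
CPM of 12 genes in each library (circles; triangles are the libraries 1753 and 1753-2; bars are mean ± SD, n = 5; axes start at 0). For Acadm and Acadl every KO and dKO point lies above every WT point, while Acsl1 and Cpt1a overlap between WT and KO.

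Electrons from the dehydrogenases pass through 3 gene products, and all had log2 fold changes of 0.67 to 0.78 in KO against WT. Etfa (chr9:55302315-55360050 on mm9, minus strand) passed the test. Etfa was at 198, 168, 262, 201 and 202 CPM in the 5 WT libraries, at 381, 364, 414, 293 and 310 CPM in the 5 KO libraries and at 283, 267, 252, 412 and 445 CPM in the 5 dKO libraries. The highest WT library, at 262 CPM, lay below the lowest KO library, at 293 CPM, and dKO replicate 3 lay below that WT library. The log2 fold change was 0.77 (SE 0.17, adjusted p = 0.0470) in KO and 0.69 (SE 0.17, adjusted p = 0.0833) in dKO against WT, where it was 0.37 without the 1753 pair (adjusted p = 0.483). Etfb, the beta subunit, had means of 81.6 ± 17.7, 129 ± 41.5 and 148 ± 69.2 CPM in WT, KO and dKO (SD, n = 5) and was not called. Etfdh was at 66.4, 75.3, 82.9, 73.2 and 95.4 CPM in the 5 WT libraries, at 167, 148, 145, 116 and 96.6 CPM in the 5 KO libraries and at 85, 103, 98.2, 180 and 175 CPM in the 5 dKO libraries. The lowest KO library stood just above the highest WT library, at 96.6 against 95.4 CPM. Etfdh missed the threshold in KO against WT (0.78, SE 0.21, adjusted p = 0.116) and passed it without both 1753 libraries (0.77, adjusted p = 0.00286).

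None of the 4 tested genes of the carnitine shuttle was called with all 15 libraries. Cpt2 turns acylcarnitine back into acyl-CoA inside the mitochondrion. Cpt2 was at 44.2, 49.3, 54.6, 40.4 and 60.1 CPM in the 5 WT libraries, at 91.3, 88.8, 132, 65.9 and 82.8 CPM in the 5 KO libraries and at 59.7, 71.6, 64, 129 and 128 CPM in the 5 dKO libraries. KO and WT did not overlap, and the log2 fold change was 0.88 (SE 0.23, adjusted p = 0.115) in KO against WT and 0.87 (adjusted p = 0.00241) without both 1753 libraries. Cpt1a encodes the malonyl-CoA-sensitive entry enzyme of the outer membrane. In the same order, Cpt1a was at 54.9, 25.7, 33.9, 60.7 and 40.9 CPM in WT mice, 48.1, 40.7, 30.5, 38.3 and 38.5 CPM in KO mice and 47.7, 38.9, 45.4, 78 and 73.8 CPM in dKO mice. The WT and KO ranges overlapped throughout, with a log2 fold change of -0.12 (SE 0.23, adjusted p = 0.932); the 1753 pair held the highest values of all 15 libraries. Crat, carnitine acetyltransferase, and Slc22a5, the carnitine importer, had log2 fold changes of 0.05 and 0.24 in KO against WT, neither of them called. Slc25a20, the carnitine-acylcarnitine carrier, is not on the list but works between Cpt1 and Cpt2. It rose in KO from 38.8 ± 3.81 to 64.9 ± 12 CPM (SD, n = 5), a log2 fold change of 0.75 (SE 0.16, adjusted p = 0.0422).

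Cpt1b, the form of the entry enzyme found in muscle and brown fat, was near the floor. Its counts in replicates 1 to 5 were 1, 1, 0, 1 and 0 in WT, 17, 4, 1, 0 and 0 in KO and 2, 2, 0, 2 and 3 in dKO. KO replicate 1, which gave 17 of these 34 counts, was the deepest library. On mm9, 81.4% of its exon bases are shared with Chkb on the same strand, so reads there may have been dropped or given to Chkb, and the value cannot be read as the level of the transcript. Cpt1b was at 0 in 5 of 15 libraries, so its ratio to Cpt1a is set by depth and by what is added to each count, and the test planned on that ratio is not reported.

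With all 15 libraries, none of the 6 tested synthetases was called in any comparison. Acsl1 encodes the main long-chain acyl-CoA synthetase of adipocytes. Acsl1 was at 1386, 1071, 1129, 885 and 1136 CPM in the 5 WT libraries, at 1309, 1120, 1541, 975 and 1391 CPM in the 5 KO libraries and at 827, 1265, 1059, 2148 and 2146 CPM in the 5 dKO libraries. WT and KO overlapped, with a log2 fold change of 0.18 (SE 0.23, adjusted p = 0.897), and the 1753 pair was the highest of all libraries. Acsl3, which acts at lipid droplets, had its highest values in the same pair, 38.9 and 42.2 CPM, against 7.47 to 14.6 CPM in the other dKO libraries. Acsl4, which prefers arachidonate, ranged over 25.5 to 35.3 CPM in WT, 29.6 to 52.6 CPM in KO and 23.4 to 33.1 CPM in dKO. Acsl5 had means of 44.4, 42.7 and 38.7 CPM and Acss1, the mitochondrial acetyl-CoA synthetase, 26.1, 30.9 and 22.6 CPM in WT, KO and dKO. Acsm3, a medium-chain synthetase, had the lowest log2 fold change of the 34 genes in KO against WT, -0.45 (SE 0.30, adjusted p = 0.706), and shares 39.7% of its exon bases with Eri2. Acsl6 had 0 counts in 9 of 15 libraries and 18 in all.

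The auxiliary enzymes bring unsaturated chains into the spiral. Decr1 encodes the mitochondrial 2,4-dienoyl-CoA reductase. Decr1 was at 94.9, 72.2, 103, 82.4 and 103 CPM in the 5 WT libraries, at 208, 179, 162, 120 and 121 CPM in the 5 KO libraries and at 116, 109, 106, 258 and 261 CPM in the 5 dKO libraries. Every KO and dKO library was above every WT library, but the spread within dKO was wide, from 106 to 261 CPM. The log2 fold change was 0.80 (SE 0.26, adjusted p = 0.249) in KO and 0.91 (SE 0.26, adjusted p = 0.131) in dKO against WT. Without the 1753 pair the value in dKO against WT was 0.27 (adjusted p = 0.763). The isomerases Eci1 and Eci2 had log2 fold changes of 0.50 and 0.26 in KO against WT, and neither was called.

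The thioesterases split acyl-CoA back to free fatty acid. Acot11, a long-chain enzyme that is induced by cold in mouse brown fat, had the largest log2 fold change of the 34 genes in KO against WT, 1.70 (SE 0.52), short of the threshold (adjusted p = 0.21). Its values were 1.86 to 9.88 CPM in WT, 7.19 to 30.7 CPM in KO and 1.62 to 9.75 CPM in dKO, and 2 KO libraries, replicates 1 and 2, lay above 20 CPM. Of its exon bases, 20.8% are shared with Fam151a on the other strand. Acot9 was at 14.3 to 21.4 CPM in WT and 21.6 to 25.8 CPM in KO, without overlap (0.40, SE 0.19, adjusted p = 0.508). Acot2 and Acot13 had log2 fold changes of -0.01 and 0.37. Acot1 had 46 counts over all libraries, and since it closely resembles Acot2, reads may be split between them.

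**Figure D4:**
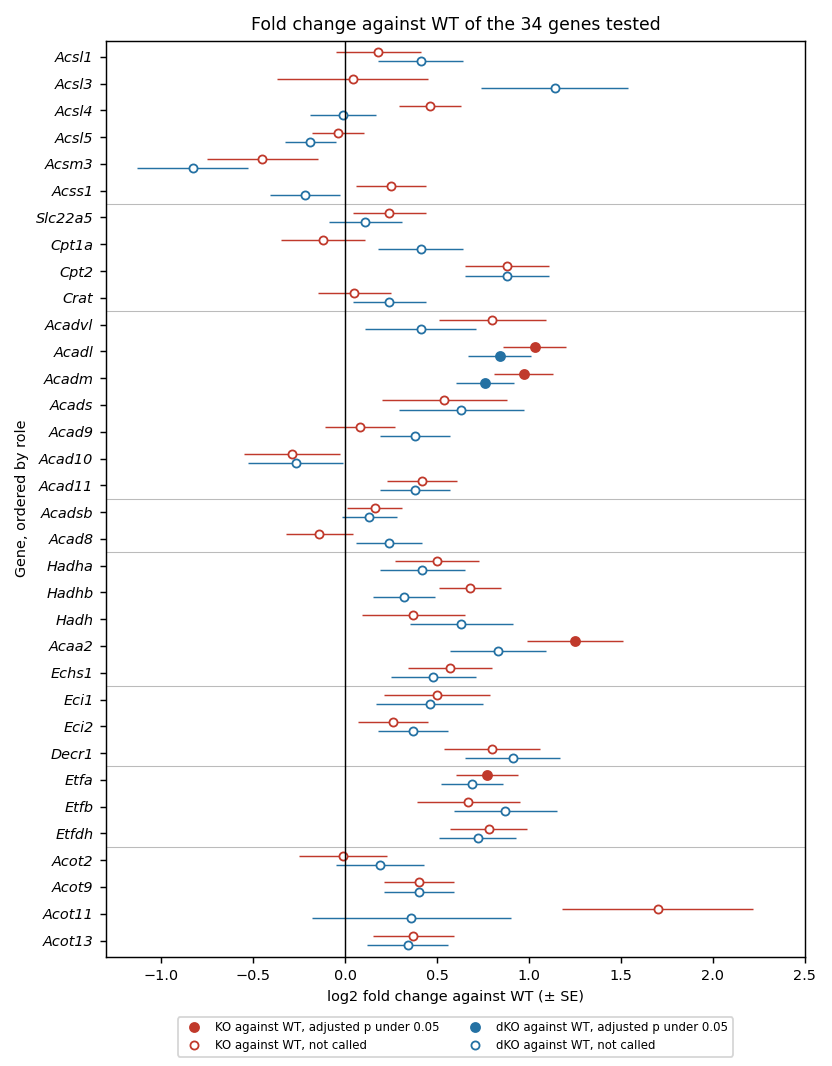
Log2 fold change against WT (x axis, bars ± SE) of the 34 tested genes by role, in KO (red) and dKO (blue), filled where the adjusted p was under 0.05. The filled points are Acadl, Acadm, Acaa2 and Etfa in KO and Acadl and Acadm in dKO; both comparisons share the WT libraries.

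The dKO mice were then set against KO, which asks what the further loss of HDAC4 does. With all 5 dKO libraries, 0 of 34 genes were called, beside 0.0738% of all genes in either direction (edgeR). DESeq2 and limma voom also called 0. In the edgeR fit 5 of the 34, or 14.7%, had an unadjusted p under 0.05, beside 6.17% of all genes: Acsl3, Acsl4, Acss1, Cpt1a and Acot11. The median log2 fold change was -0.04, with 13 genes above 0 and 21 below. No gene had every dKO library below every KO library, beside 0.5% of all genes. The summed level was 2898, 3469 and 3132 CPM in dKO replicates 1 to 3 and 5787 and 5752 CPM in the 1753 pair, against 3427 to 4901 CPM in KO. By comparison, Ucp1, the uncoupling protein of thermogenic fat, fell from 489 ± 202 CPM in KO to 98.5 ± 23.6 CPM in dKO (log2 fold change -2.31, SE 0.39, adjusted p = 0.0393); without the 1753 pair the log2 fold change was -2.27 and was not called (adjusted p = 0.185).

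The 1753 pair held the highest dKO values of most of these genes. In 27 of 34 genes, or 79.4%, both libraries lay above the other 3 dKO libraries, beside 30.4% of all genes. Without them, the median in dKO against KO was -0.39 (all genes -0.00) and 30 of 34 genes lay below 0. Then 1 gene was called, Acaa2, lower by 1.01 on the log2 scale (log2 fold change -1.01, SE 0.18, adjusted p = 0.0150), beside 0.0476% of all genes called lower. The largest other differences were those of Acot11 at -2.21 (adjusted p = 0.283), Acadvl at -0.85 (adjusted p = 0.386) and Eci1 at -0.80 (adjusted p = 0.129), none of them called. With 3 dKO libraries left, 16 of the 34 genes had an unadjusted p under 0.05 (edgeR). The share of all genes in that fit is not given, so this count is not read as a result about the listed genes.

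**Figure D5:**
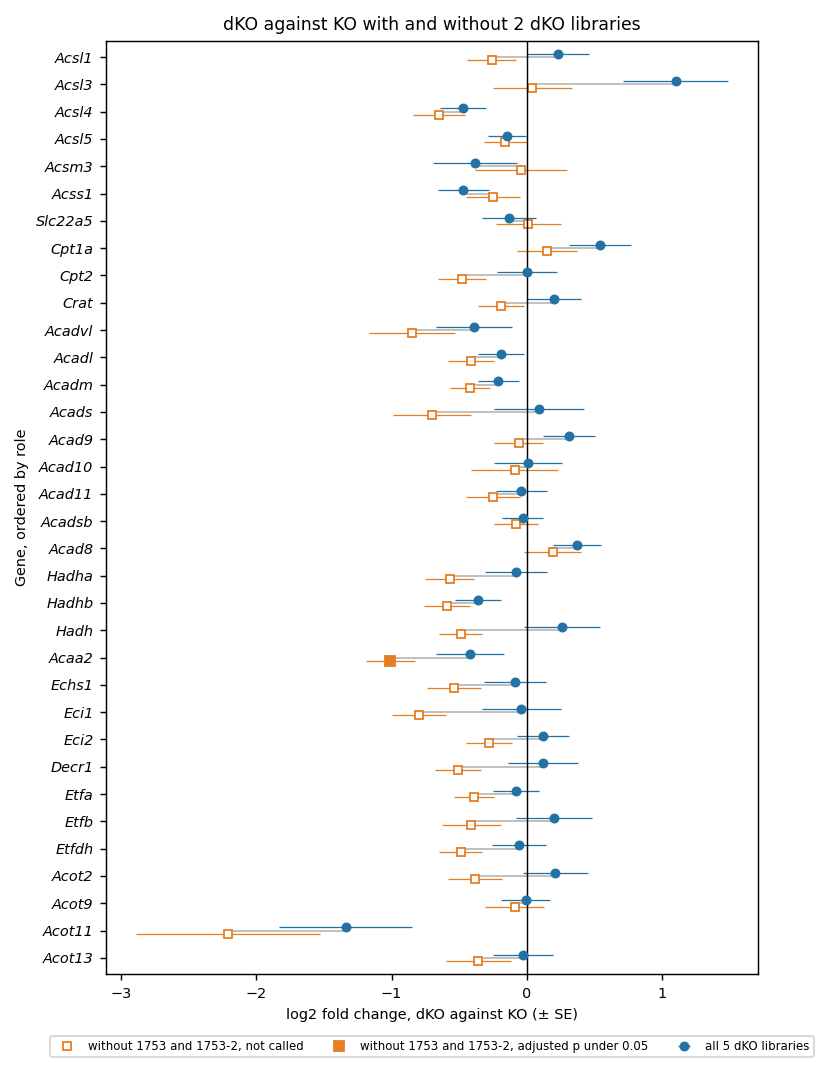
Log2 fold change in dKO against KO (x axis, bars ± SE) of the 34 tested genes by role, with all 5 dKO libraries (blue circles) and without 1753 and 1753-2 (orange squares, filled where the adjusted p was under 0.05). The blue points scatter around 0 with a median of -0.04, and 30 of the 34 orange points lie below 0, with Acaa2 filled.

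Against WT, dKO showed Acadm and Acadl higher, by 1.69 and 1.79 fold. These were 2 of 34 genes, or 5.88%, beside 0.427% of all genes called higher, and no gene was called lower. The median log2 fold change was 0.40 (all genes -0.00), 29 of 34 lay above 0, and 3 genes, Acadl, Acadm and Decr1, had every dKO library above every WT library, beside 1.3% of all genes. Without both 1753 libraries no gene was called (edgeR), the median was 0.01 and 19 genes lay above 0. Of the 34 genes, 4 then had an unadjusted p under 0.05 (edgeR). The share of all genes in that fit is not given, so this count cannot be told from the background. Acadl then had a log2 fold change of 0.61 and Acadm of 0.53, each with an adjusted p of 0.171. With the pair summed to 1 library, or with the muscle covariate, no gene was called either; under the covariate both stood at an adjusted p of 0.0526, with log2 fold changes of 0.83 for Acadl and 0.75 for Acadm. Leaving out single libraries gave counts of 0 to 6: 0 without dKO replicate 4 or 5 or WT replicate 1, 2, 4 or 5, 1 without WT replicate 3, and 6 without dKO replicate 1, when Acsl3, Cpt2, Etfa and Etfdh joined.

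Related gene lists give the setting, and 0.435% of all genes tested were called higher in KO against WT. Of the regulators, 2 of 16 tested rose in KO: Ppargc1a, which encodes PGC-1 alpha, from 23.8 ± 4.11 to 62.9 ± 22 CPM (log2 fold change 1.42, SE 0.24, adjusted p = 0.00769), and Esrrg, an estrogen-related receptor, from 5.53 ± 2.75 to 14.8 ± 3.48 CPM (1.41, SE 0.27, adjusted p = 0.0145). Ppara, Ppard and Pparg were not called. Ppargc1a was also higher in dKO than in WT, at 56.6 ± 16.2 CPM (1.27, SE 0.24, adjusted p = 0.0218), but was not called without the 1753 pair (1.03, adjusted p = 0.171). Of 13 other PPAR targets tested, 3 rose in KO: Gyk (2.40, SE 0.28, adjusted p = 0.000105), Plin5 (2.48, SE 0.31, adjusted p = 0.000187) and Pdk4 (1.91, SE 0.36, adjusted p = 0.0218). They encode glycerol kinase, a lipid droplet protein that meets mitochondria, and the kinase that turns off pyruvate dehydrogenase. The other targets were not called, among them Fabp4 (0.21), Cd36 (0.03) and Ucp2 (-0.31), and the median of the 13 was 0.50. Slc27a2 was called higher in KO only without the 1753 pair (1.80, adjusted p = 0.0222). In peroxisomes, which shorten very long chains, 0 of 16 tested genes were called in KO against WT (edgeR), and the median was 0.32. An unadjusted p under 0.05 was found for 5 of them, beside 9.54% of all genes. Hacl1, the peroxisomal enzyme of alpha-oxidation, had a log2 fold change of 0.70 there (SE 0.17, adjusted p = 0.084). Without the 1753 pair it was called higher in KO (0.68, SE 0.15, adjusted p = 0.0111). In dKO against WT, Hacl1 rose from 14.4 ± 1.97 to 36.3 ± 9.04 CPM (1.35, SE 0.17, adjusted p = 0.00132), and by 1.04 on the log2 scale without the pair (adjusted p = 0.00403). Among 4 tested ketone body enzymes none was called in any comparison, and the most abundant were Acat1, with means of 144, 225 and 232 CPM in WT, KO and dKO, and Oxct1, with 110, 139 and 178 CPM.

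Markers of other cells are given beside these genes. The sum of 10 thermogenic markers ran from 77.1 to 131 CPM in WT, from 528 to 1316 CPM in KO and from 249 to 390 CPM in dKO. Of 8 tested markers 5 rose in KO, beside 0.435% of all genes, and Zic1, a marker of classical brown fat, was listed at 0 in each library. The adipocyte sums of WT and KO overlapped. All 9 macrophage markers had log2 fold changes below 0 in KO and in dKO against WT, with medians of -0.50 and -0.70. None was called (edgeR). An unadjusted p under 0.05 was found for 5 in KO, beside 9.54% of all genes, and for 7 in dKO, beside 14.5%. The macrophage sum was 837 to 1661 CPM in WT, 709 to 951 CPM in KO and 645 to 833 CPM in dKO, so dKO lay below WT without overlap. None of the 9 was at 0 in any group. None of the 13 tested muscle markers was called in KO against WT, although their median log2 fold change was 1.41. With the mean muscle level as a covariate, the log2 fold changes in KO against WT were 0.96 for Acadl (adjusted p = 0.0412), 0.94 for Acadm (adjusted p = 0.0236), 1.25 for Acaa2 (adjusted p = 0.0845) and 0.75 for Etfa (adjusted p = 0.167). The part of thermogenic cells and of macrophages in the result was not tested.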

How the data were processed

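Per the labels' protocols, an RNeasy kit was used on the fat and Ovation kits made the libraries. The submitters' processing notes name build mm9 and FastQC, Subread, featureCounts and edgeR; how reads were assigned to strands and overlapping genes is not stated there. The deposited table holds raw read counts per gene with exon coordinates and exon length, per the file headers. Groups came from the sample titles, and 15 count columns were matched by title. Another 45 per-sample columns were not used.

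All genes were tested together in R 4.3.3 with edgeR 4.0.16: a filter with a minimum count of 10 and total of 15 left 12188 genes, scaling was by TMM, and the robust quasi-likelihood fit had a term for each group, with 12 residual degrees of freedom. P-values were two-sided and adjusted by Benjamini-Hochberg over all genes. The SE is the log2 fold change over the square root of F. The mice are separate by their titles except possibly 1753 and 1753-2, so p-values cover the spread between mice only if those are separate. At 1564004 counts, the shallowest library gives a gene near 1 CPM 1 or 2 counts, so low genes are imprecise. These totals include mitochondrial ribosomal RNA, 33.5 to 50% of a library.

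The members and lists were chosen with earlier results of these data known. Named in every library are genes called in any comparison and 12 set key enzymes; other members are given by range or mean, and from each related list up to 4 called genes, or else the most abundant. Other fits used median-of-ratios factors, no filter, DESeq2 1.42.0, limma 3.58.1 voom with sample weights, only the groups compared, 1753 and 1753-2 summed or left out, a muscle covariate and each library left out. Promoter windows were RefSeq's.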

Additional observations from a re-analysis of the deposited data

How the results depend on the processing

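No paired analysis was possible because the titles hold mouse labels only and replicate numbers were given in accession order. Each comparison was refitted under 23 other settings, 15 of which left out 1 library. The median log2 fold change of the 34 genes in KO against WT was 0.33 to 0.46 over those 15 fits. Where a value moved, the cause was not tested.

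Listed genes called in KO against WT numbered 7 by DESeq2, 8 by voom, 8 in fits of only the groups compared, 8 without both 1753 libraries and 2 with the muscle covariate, beside 176, 286, 224, 270 and 45 of all genes in the same order. Called in dKO against WT were 5 by DESeq2 and 1 in the fit of only those groups, and 0 with voom, with the pair summed, without the pair or with the covariate, beside 235, 32, 28, 26, 30 and 46 of all genes. In dKO against KO, 1 listed gene was called without the pair. All genes called there numbered 37 by DESeq2, 5 in the fit of only those groups, 4 with the pair summed and 19 each without the pair or without the filter. Without the pair the medians of the listed genes were -0.39 in dKO against KO and 0.01 in dKO against WT. Leaving out 1 library gave 2 to 4 listed and 36 to 93 of all genes in KO against WT, 0 to 6 listed and 27 to 240 of all genes in dKO against WT, and 4 to 13 of all genes in dKO against KO.

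Some genes changed sign in other fits, none of them called in either fit. In dKO against KO without the pair, the log2 fold changes turned to -0.26 for Acsl1, 0.01 for Slc22a5, -0.19 for Crat, -0.70 for Acads, -0.06 for Acad9, -0.09 for Acad10, -0.49 for Hadh, -0.28 for Eci2, -0.51 for Decr1, -0.41 for Etfb and -0.38 for Acot2. In dKO against WT without the pair they turned to -0.10 for Acsl1, -0.16 for Crat, -0.05 for Acadvl, -0.16 for Acads, -0.08 for Hadha, -0.13 for Hadh, -0.31 for Eci1, -0.04 for Eci2, -0.41 for Acot2 and -0.50 for Acot11. With the pair summed, dKO against KO gave -0.13 for Acads, -0.01 for Acad10, -0.01 for Eci2 and -0.08 for Decr1. Voom gave -0.21 for Acads, 0.00 for Acadsb, -0.08 for Hadh, -0.01 for Eci2, -0.19 for Decr1 and -0.13 for Etfb there, and 0.02 for Acot2 in KO against WT. The covariate gave 0.01 for Acsl5 and 0.06 for Acot2 in KO against WT, and 0.01 for Cpt2, 0.05 for Acad11 and 0.05 for Acadsb in dKO against KO. DESeq2 gave 0.00 for Acot9 in dKO against KO, and the fit with no filter gave 0.03 for Cpt2 and 0.01 for Acot9 there and 0.01 for Acsl4 in dKO against WT.

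Leaving out 1 library at a time also moved the log2 fold changes of some genes across 0. In KO against WT the ranges were -0.14 to 0.16 for Acsl3, -0.10 to 0.00 for Acsl5, -0.26 to 0.01 for Cpt1a, -0.04 to 0.14 for Crat and -0.12 to 0.07 for Acot2. In dKO against KO they were -0.16 to 0.16 for Cpt2, -0.27 to 0.01 for Acadl, -0.24 to 0.23 for Acads, -0.12 to 0.15 for Acad10, -0.12 to 0.08 for Acad11, -0.10 to 0.05 for Acadsb, -0.26 to 0.04 for Hadha, -0.25 to 0.04 for Echs1, -0.30 to 0.10 for Eci1, -0.07 to 0.21 for Eci2, -0.09 to 0.24 for Decr1, -0.01 to 0.34 for Etfb, -0.21 to 0.05 for Etfdh, -0.13 to 0.13 for Acot9 and -0.18 to 0.12 for Acot13. In dKO against WT they were -0.10 to 0.07 for Acsl4, -0.01 to 0.16 for Slc22a5 and -0.01 to 0.33 for Acot2. The log2 ratio of Cpt1b to Cpt1a is not read as a level, since it depends on what is added to counts near 0; its difference in dKO against WT was 0.14 with 0.5 added to each count, -0.35 with 2 added to each count and -0.14 to 0.48 with 1 library left out, and in dKO against KO it was -0.42 with all libraries and 0.25 without the pair.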

Other observations

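Malonyl-CoA, made by acetyl-CoA carboxylases, is the inhibitor of the entry enzyme of mitochondrial oxidation. Acaca, the carboxylase of fatty acid synthesis, averaged 520 CPM in WT mice, 280 CPM in KO mice and 623 CPM in dKO mice. It was at 136, 279 and 316 CPM in dKO replicates 1 to 3 and at 1166 and 1221 CPM in replicates 4 and 5. Its log2 fold change in dKO was 0.26 against WT and 1.16 against KO, and -1.11 and -0.21 without that pair. Acacb, the form at the mitochondrial surface, had means of 143, 127 and 160 CPM, with 243 and 241 CPM in the pair. Its log2 fold change in dKO was 0.17 against WT and 0.35 against KO, and -0.48 and -0.29 without the pair. Mlycd, which breaks malonyl-CoA down, had means of 7.50, 10.5 and 11.4 CPM. Its log2 fold change in dKO was 0.65 against WT and 0.17 against KO, and 0.31 and -0.15 without the pair. None of these genes was called in any comparison, with or without the pair.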
